A study of Mus musculus with 17 samples.

Results

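Activating transcription factor 4 (Atf4), 3 of its stress targets (Ddit3, Trib3 and Chac1) and 6 of its amino acid synthesis targets (Asns, Phgdh, Psat1, Psph, Shmt2 and Mthfd2) were followed over 7 days in cultured mouse neural retinal progenitor cells (mNRPCs). They are 10 of the 18836 genes listed in the deposited tables, and were chosen by name. The rule held no measured value, but earlier results of these data were known when the choice was made. All 10 were listed in all 17 libraries and passed the filter on low values. The question was how the mRNAs of the synthesis targets moved beside those of the stress targets when the growth factor bFGF, the inhibitor CHIR99021 or both were given.

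ATF4 is the central transcription factor of the integrated stress response. Kinases that sense amino acid shortage, misfolded protein in the endoplasmic reticulum (ER), heme shortage or viral RNA phosphorylate the initiation factor eIF2alpha, which lowers translation in general while the ATF4 protein is made in larger amounts. ATF4 then binds DNA with partners of the C/EBP family and switches on genes for amino acid synthesis and transport, and, when the stress lasts, genes that limit the response or lead to cell death. The serine pathway (Phgdh, Psat1, Psph) makes serine from a glycolytic intermediate, and the mitochondrial enzymes Shmt2 and Mthfd2 pass its carbon on to folate for nucleotide synthesis. In the retina this pathway is best known from Müller glia, which make serine for their neighbours. Because ATF4 is regulated largely at translation, an mRNA level is not a measure of its activity.

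The cells came from the neural retina of adult C57BL/6 mice and, by the study's methods, were propagated with both agents. BM is the basic medium alone, and the other media add bFGF (B), a mitogen that acts through FGF receptors, CHIR99021 (C), an inhibitor of the kinase GSK3, or both (BC). Each medium was sequenced once on each of days 1, 3, 5 and 7, and a single library labelled as untreated served as the day 0 control, which the study describes in one place as cells in BM and in another as cells before treatment. How many mice, cultures or passages stood behind a library is not given in the sources used here. With no replicate of any condition, a p-value below measures the departures from the fitted effects of bFGF, CHIR99021 and day, and not the spread between cultures.

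Total expected counts per library lay between 17571973 and 19428744, so depth was even. The TMM factors, which correct for differences in the composition of the libraries, ran from 0.754 in BC on day 7 to 1.127 in BM on day 7. Without them the median of all genes tested shifted with bFGF by -0.29 over days 1 to 7, by -0.46 on day 5 and by -0.54 on day 7 on the log2 scale, and 19.9% of genes were then called higher and 50.6% lower, against 34.6% and 33.9% with TMM. FPKM values are not corrected in this way. Of the progenitor markers, Pax6, Six3, Sox2, Nes and Hes1 were at 1 FPKM or more in 17 of 17 libraries, whereas Rax and Six6 reached at most 0.07 and 0.03. Of 6 Müller glia markers Glul, Dkk3 and Vim were at 1 FPKM or more in 17 of 17 libraries and Aqp4 in 2, whereas Rlbp1 and Slc1a3 reached at most 0.13 and 0.05. Several marker sums moved with bFGF in the 16 cultured libraries. The summed progenitor markers ran from 149 to 402 FPKM without bFGF (median 356) and from 95.9 to 206 with it (median 115). The summed Müller glia markers, of which Vim is the main part, ran from 1455 to 2724 without bFGF (median 1800) and from 1667 to 4399 with it (median 3569). Dkk3 and Aqp4 of that list did not follow Vim. On day 7 Vim was at 1229 (BM), 1380 (C), 3399 (B) and 3782 (BC). Dkk3 was at 213 (BM), 133 (C), 85.4 (B) and 59.7 (BC), and Aqp4 at 1.53 (BM), 1.44 (C), 0.03 (B) and 0.02 (BC). Glul overlapped on that day, at 12.4 (BM), 16.9 (C), 23.3 (B) and 15.8 (BC). Over days 1 to 7 Glul was higher with bFGF by 0.70 ± 0.11 (SE, log2 scale, edgeR with TMM, adjusted p = 0.000288). The summed pericyte and fibroblast markers (Pdgfrb, Dcn, Col1a1, Rgs5) ran from 14.8 to 158 FPKM without bFGF and from 6.11 to 34.4 with it, and the part of these cell types in the results below was not tested. In such bulk samples fewer cells that express a gene and less RNA per cell cannot be told apart.

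The promoters are shown first because ATF4 with a C/EBP partner is known to bind a composite element. The genes were grouped as targets by name, and no promoter sequence entered that grouping. The 8 letters TGATGNAA were searched on both strands of the RefSeq promoter windows (GRCm38.p6, 250 bases before to 50 after each start). Windows of 3 of the 10 genes held them, those of Trib3, Chac1 and Asns, beside 3.97% of all 32851 windows and 2.17% of the 11588 windows of genes tested. Each is printed 5′ to 3′ on the strand of its gene, with the match in capitals:
Trib3: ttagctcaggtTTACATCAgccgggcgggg
Chac1: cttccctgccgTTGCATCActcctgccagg
Asns: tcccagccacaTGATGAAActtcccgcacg
The Trib3 match lies 15 bases after the RefSeq start (printed stretch chr2:152344028-152344057, minus strand) and the Chac1 match 193 bases before it (printed stretch chr2:119351038-119351067, plus strand). Both are read as the reverse complement and lie outside the transcripts that GENCODE M21 gives these genes. The Asns match lies 23 bases before the RefSeq start (printed stretch chr6:7693214-7693243, minus strand), within an untranslated exon of a longer GENCODE M21 transcript. In the windows of Atf4, Ddit3, Phgdh, Psat1, Psph, Shmt2 and Mthfd2 these letters do not occur, which says nothing about sites elsewhere. The 3 genes with a match are 2 stress targets and 1 synthesis target, and they are returned to below.

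Across the 4 days, bFGF was associated with higher mRNA of all 10 genes. In the edgeR quasi-likelihood test over the 16 cultured libraries, 10 of 10 were called higher (adjusted p from 0.000121 to 0.00135), where 34.6% of the 11272 genes tested were. The median of the 10 genes was 1.26 on the log2 scale, and the differences ranged from 0.44 for Phgdh to 2.59 for Ddit3. The 3 stress targets ran from 0.66 to 2.59 (median 1.93) and the 6 synthesis targets from 0.44 to 2.12 (median 1.05), so the classes overlapped. Scaling by library size alone left 9 of 10 called, where 19.9% of all genes were called higher, and lost Phgdh (0.15, adjusted p = 0.0817).

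**Figure D1:**
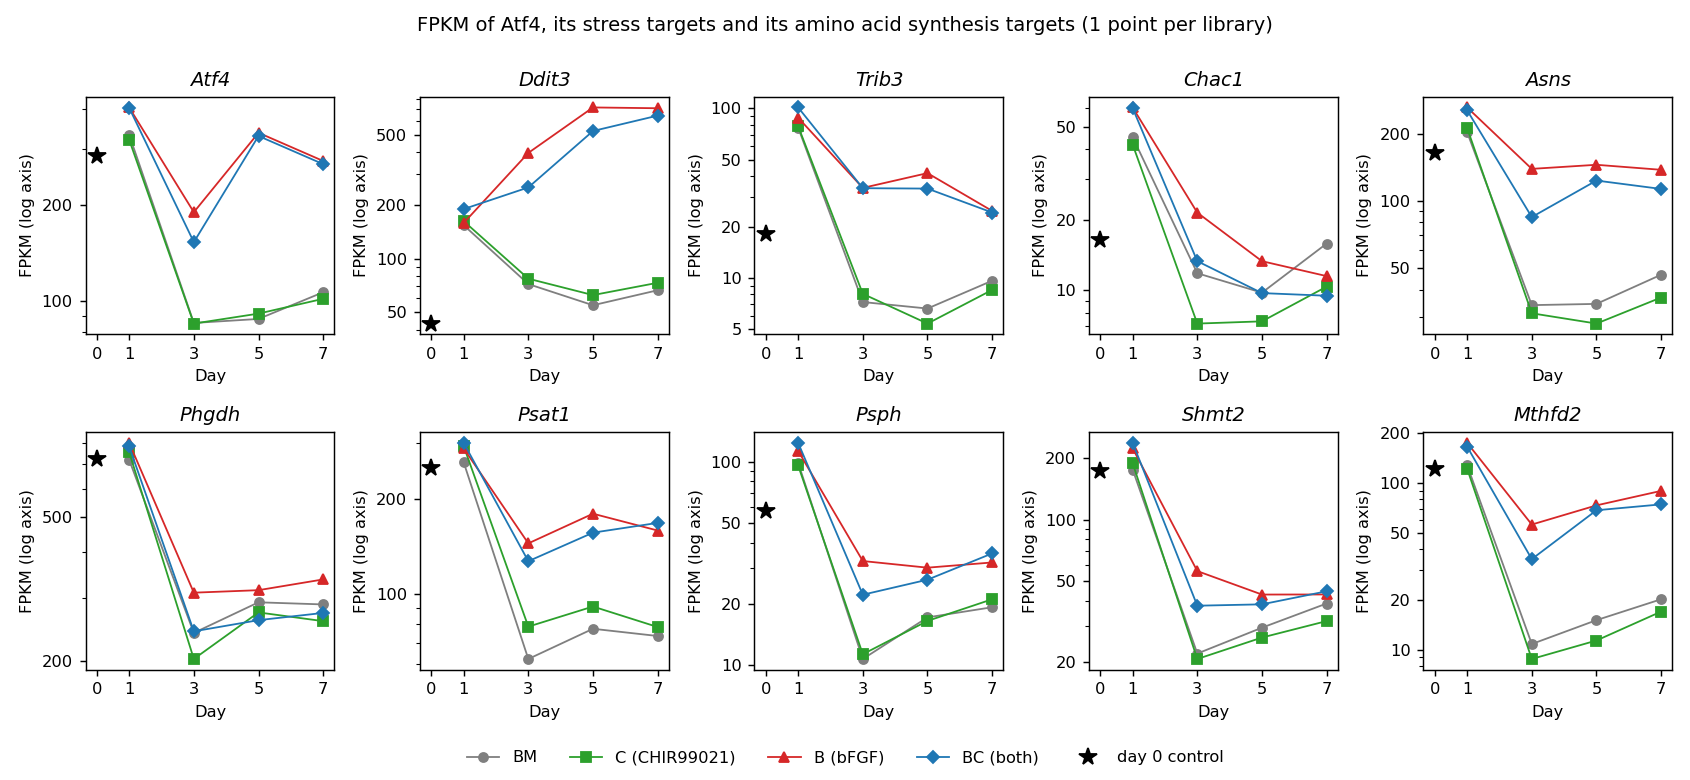
FPKM on a log axis against day for each of the 10 genes, 1 point per library, with BM (grey circles), C (green squares), B (red triangles), BC (blue diamonds) and the day 0 control (black star). The B and BC lines stand above BM and C from day 3 in Atf4, Ddit3, Trib3, Asns, Psat1, Psph, Shmt2 and Mthfd2. They do not in Chac1, where BM on day 7 (15.8 FPKM) is above both, or in Phgdh. FPKM is not TMM corrected, and the day 7 difference of Chac1 is positive with TMM.

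The mRNA of Atf4, the regulator itself, was higher with bFGF on each of the 4 days. It stood at 285 FPKM in the day 0 control, and on day 1 at 332 (BM), 321 (C), 405 (B) and 404 (BC). From day 3 to day 7 the 6 libraries without bFGF lay between 85.0 and 107 FPKM with a median of 89.7, and the 6 with bFGF between 153 and 337 with a median of 272. The groups did not overlap after day 1, and the lowest value with bFGF was that of BC on day 3. Its bFGF difference was 0.39 ± 0.09 (SE, log2 scale) on day 1, 1.11 ± 0.10 on day 3, 2.34 ± 0.10 on day 5 and 1.93 ± 0.10 on day 7 (adjusted p = 0.0242, 3.48e-06, 1.03e-08 and 7.85e-09). The difference on day 7 exceeded that on day 1 by 1.54 ± 0.13 (adjusted p = 1.67e-06). By day 7 the level in B and BC (275 and 269 FPKM) was near the day 0 value, whereas BM and C (107 and 102) were 2.67 and 2.80 times below it.

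Ddit3 encodes CHOP, the transcription factor that promotes cell death when ER stress persists. It was at 43.2 FPKM on day 0 and, on day 1, at 155 (BM), 163 (C), 159 (B) and 191 (BC), with the 4 media close together. On day 3 it was 72.2 (BM), 77.4 (C), 395 (B) and 253 (BC). On day 7 it was 66.6 (BM), 73.4 (C), 705 (B) and 641 (BC), which is 16.3 (B) and 14.8 (BC) times the day 0 value. Ddit3 was the only one of the 10 that was higher on day 3 than on day 1 with bFGF (0.89 ± 0.19, adjusted p = 0.00158), while without bFGF it fell by 1.08 ± 0.20 (adjusted p = 0.000414). Its bFGF difference was 0.23 ± 0.19 on day 1 (adjusted p = 0.487), 3.83 ± 0.22 on day 5 and 3.84 ± 0.22 on day 7, a fold of 14.3 on the last day (adjusted p = 1.47e-08). It had the largest day 7 against day 1 difference of the 10 genes, 3.61 ± 0.28 (adjusted p = 7.73e-07).

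Trib3, a pseudokinase that restrains ATF4 and AKT signalling and whose promoter window holds the composite letters, followed another course. It was at 18.1 FPKM on day 0, and between 77.2 and 101 in the 4 libraries of day 1. From day 3 the 6 libraries without bFGF held 5.38 to 9.63 FPKM (median 7.63) and the 6 with bFGF 24.3 to 41.5 (median 33.8), with no overlap. The day 1 level was thus the highest in every medium, and the later levels with bFGF were above day 0 and those without were below it. The bFGF difference was 0.37 ± 0.12 on day 1 (adjusted p = 0.0708), 2.25 ± 0.13 on day 3, 3.10 ± 0.14 on day 5 and 1.98 ± 0.13 on day 7 (adjusted p = 5.27e-08 on day 7).

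Chac1 encodes an enzyme that breaks down glutathione and is a target of ATF4 in the unfolded protein response. Its day 0 level was 16.4 FPKM. On day 1 it was 45.2 (BM), 42.0 (C), 60.5 (B) and 60.1 (BC), and on day 3 it was 11.8 (BM), 7.19 (C), 21.5 (B) and 13.3 (BC). On day 7 it was 15.8 (BM), 10.3 (C), 11.5 (B) and 9.46 (BC), so that the groups overlapped. The bFGF difference was 0.56 ± 0.15 on day 1, 0.97 ± 0.17 on day 3 and 0.87 ± 0.18 on day 5 (adjusted p = 0.0394, 0.000581 and 0.000629). On day 7 it was 0.24 ± 0.17 with TMM (adjusted p = 0.216) and turned to -0.30 with library size alone, so no direction can be given for that day. Ddit3 and Chac1, both stress targets, therefore stood at opposite ends of the 10 genes on day 7 (3.84 and 0.24).

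Asns makes asparagine from aspartate and glutamine, and its window holds the composite letters on the gene's own strand. It was at 164 FPKM on day 0 and at 203 (BM), 212 (C), 262 (B) and 255 (BC) on day 1. From day 3 it lay between 28.2 and 46.6 FPKM (median 34.3) without bFGF and between 84.6 and 145 (median 131) with it. The groups did not overlap, and with bFGF the later levels stayed within 2 times of day 0. Its bFGF difference was 0.39 ± 0.14 on day 1 (adjusted p = 0.106), 1.85 ± 0.15 on day 3, 2.55 ± 0.16 on day 5 and 2.13 ± 0.15 on day 7 (adjusted p = 9.47e-08).

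The 3 enzymes of the serine pathway differed in level and in the size of the bFGF difference. Phgdh, the enzyme of the first step, was the most abundant of the 10 at day 0 (725 FPKM) and held 721 to 803 FPKM on day 1. From day 3 it lay between 203 and 291 FPKM (median 266) without bFGF and between 242 and 337 (median 291) with it, so the groups overlapped. Its bFGF difference was 0.41 ± 0.11 on day 3, 0.47 ± 0.11 on day 5 and 0.70 ± 0.11 on day 7 with TMM (adjusted p = 0.00649, 0.00148 and 6.11e-05). With library size alone it was 0.02 on day 5 (adjusted p = 0.85) and 0.16 on day 7 (adjusted p = 0.18). On day 3 the call was also lost without the C library of that day (adjusted p = 0.0526) or the B library (adjusted p = 0.0797).

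Psat1, the aminotransferase of the second step, was at 251 FPKM on day 0 and at 261 to 301 on day 1. Later levels were 62.1 to 91.0 FPKM (median 77.9) without bFGF and 127 to 179 (median 157) with it, with no overlap. The difference with bFGF was 0.17 ± 0.13 on day 1 (adjusted p = 0.434), 1.05 ± 0.13 on day 3, 1.45 ± 0.13 on day 5 and 1.65 ± 0.13 on day 7 (adjusted p = 2.71e-07).

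Psph, the phosphatase of the last step, was the least abundant of the 3 pathway enzymes. It was at 57.0 FPKM on day 0, at 98.5 (BM), 95.7 (C), 113 (B) and 124 (BC) on day 1, and later at 10.7 to 21.1 (median 16.8) without bFGF and 22.2 to 35.4 (median 31.0) with it. These later groups did not overlap either. The difference with bFGF was 1.35 ± 0.15 on day 3, 1.16 ± 0.15 on day 5 and 1.25 ± 0.14 on day 7 (adjusted p = 5.36e-06). On FPKM, the 3 enzymes of a single pathway thus stood, on day 7, 1.17 (B) and 1.05 (BC) times their BM and C values in Phgdh, 2.16 and 2.14 times in Psat1, and 1.66 and 1.68 times in Psph.

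Shmt2 and Mthfd2 act in sequence in the mitochondrial folate pathway. Shmt2, which splits serine into glycine and a one-carbon unit, was at 174 FPKM on day 0 and at 176 to 238 on day 1. It then lay between 20.7 and 38.8 FPKM (median 28.0) without bFGF and between 37.8 and 55.9 (median 42.9) with it, and the groups overlapped by the BM library of day 7. Mthfd2, which oxidises the one-carbon unit on folate, was at 121 FPKM on day 0 and at 128 (BM), 122 (C), 175 (B) and 166 (BC) on day 1. Later it held 8.79 to 20.1 FPKM (median 13.2) without bFGF and 35.0 to 89.9 (median 71.2) with it, far apart. On day 7 the bFGF difference was 0.86 ± 0.15 in Shmt2 (adjusted p = 0.000159) and 2.69 ± 0.14 in Mthfd2 (adjusted p = 9.27e-09). Mthfd2 was the only synthesis gene called higher with bFGF on day 1 (0.52 ± 0.13, adjusted p = 0.0254).

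**Figure D2:**
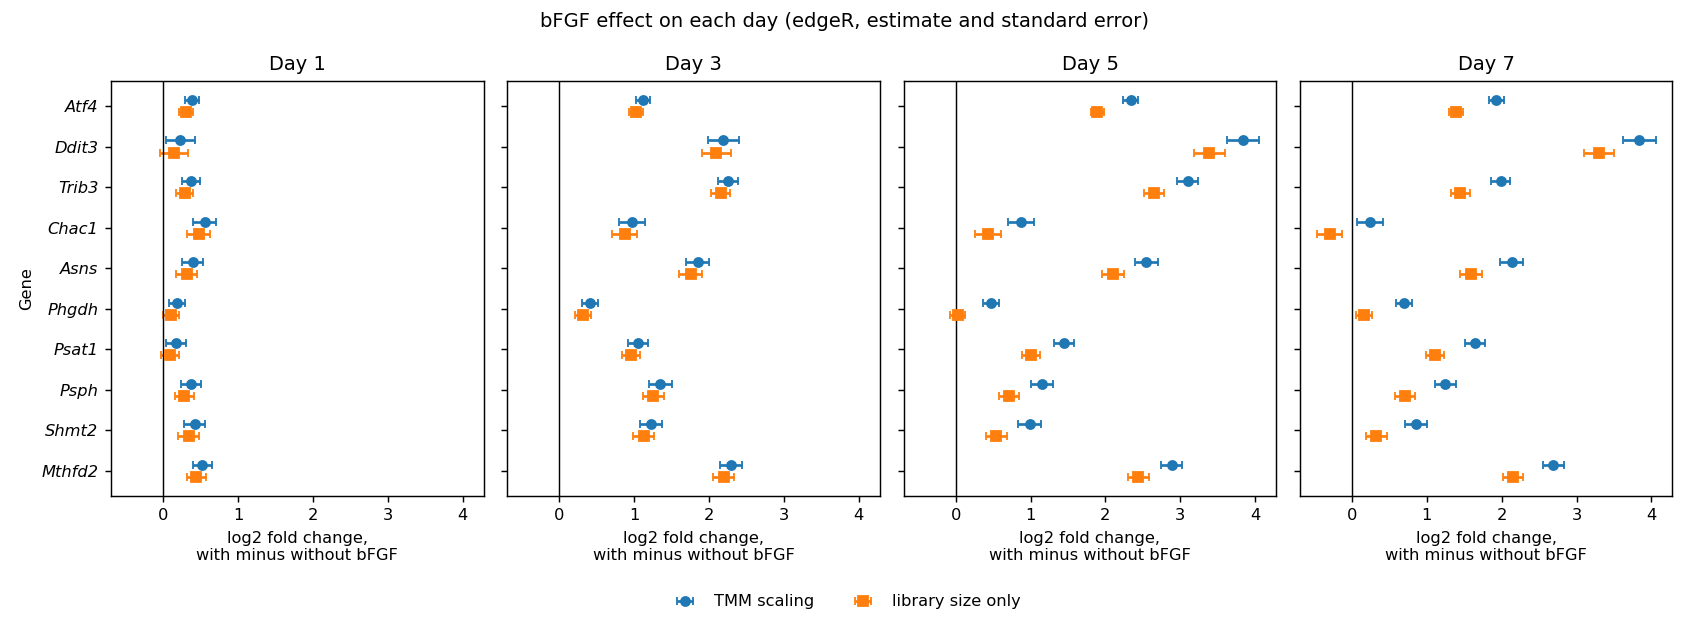
Estimated log2 fold change with minus without bFGF on each day, with its standard error, for TMM scaling (blue circles) and for library size only (orange squares), 1 row per gene. On day 1 all TMM values lie between 0.17 and 0.56. On day 7 they reach 3.84 in Ddit3, and Chac1 changes sign with the scaling (0.24 with TMM, -0.30 with library size only).

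Set side by side, the days differed. On day 1, 3 of 10 genes were called higher with bFGF (Atf4, Chac1 and Mthfd2), where 6.21% of all genes were. The day 1 differences were small, from 0.17 in Psat1 to 0.56 in Chac1, and with library size alone 1 of 10 (Mthfd2) was called higher, against 3.39% of all genes. On day 3, 10 of 10 were called higher, against 25.4% of all genes, and on day 5, 10 of 10 against 37.2%. On day 7, 9 of 10 were called higher, against 38.8%, with Chac1 the exception. The bFGF difference was larger on day 7 than on day 1 in 8 of 10 genes, against 31.3% of all genes, and not called in Chac1 (-0.32 ± 0.23, adjusted p = 0.242) or Shmt2 (0.44 ± 0.20, adjusted p = 0.0742). With library size alone 17.7% of all genes were called larger on day 7 and 51.3% smaller. Of the 10 genes 6 were then called larger, Psph (0.42, adjusted p = 0.0556) and Phgdh (0.06, adjusted p = 0.741) were not, the Shmt2 value turned to -0.02, and Chac1 was called smaller (-0.77, adjusted p = 0.00947). Leaving out any of the 4 libraries of day 1 left 0 or 1 of the 10 genes called on that day, and leaving out B or BC of day 3 left 6 called, with Asns, Psph and Shmt2 gained.

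The comparison was repeated for single genes without a model, on log2(FPKM + 1) in the 8 pairs of libraries of 1 day that differ in bFGF only. Atf4, Ddit3, Trib3, Asns, Psat1, Psph, Shmt2 and Mthfd2 were higher with bFGF in 8 of 8 pairs (two-sided exact permutation test by flipping signs, p = 0.00781, the smallest that 8 pairs can give, and 0.0156 after Benjamini-Hochberg adjustment over 20 tests). The mean differences of these 8 genes ran from 0.56 ± 0.36 (SD over pairs) in Shmt2 to 2.20 ± 1.41 in Ddit3. Phgdh was higher in 7 of 8 pairs by 0.15 ± 0.14 (exact p = 0.0234, adjusted 0.0361) and Chac1 in 6 of 8 by 0.34 ± 0.43 (exact p = 0.0859, adjusted 0.123). With FPKM divided by the TMM factors Chac1 was higher in 8 of 8 pairs (0.61, exact p = 0.00781). Pairs of 1 day may move together, which this test does not take into account.

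From day 3 to day 7 the 6 libraries with bFGF all lay above the 6 without in 7 of 10 genes (Atf4, Ddit3, Trib3, Asns, Psat1, Psph and Mthfd2), where 11.9% of 11258 genes did, those whose mean FPKM over the 17 libraries was 1 or more. Chac1, Phgdh and Shmt2 overlapped.

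These genes also changed with time. Between day 1 and day 3 without bFGF, 10 of 10 fell, against 32% of all genes. Mthfd2 fell by 3.65 ± 0.15 on the log2 scale, 12.6 times, Trib3 by 3.33 ± 0.14, Shmt2 by 3.08 ± 0.16 and Psph by 3.07 ± 0.15 (adjusted p from 1.35e-08 to 2.80e-08). Ddit3 fell least, by 1.08. With bFGF over the same interval 9 of 10 fell, against 32.9% of all genes, and Ddit3 rose. The falls with bFGF were from 1.08 ± 0.13 in Psat1 to 2.28 ± 0.15 in Shmt2. Mthfd2 fell by 1.89 ± 0.13 and Asns by 1.20 ± 0.15 with bFGF, whereas Asns fell by 2.66 ± 0.16 without, while Phgdh fell by 1.5 ± 0.11 with and 1.73 ± 0.11 without.

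After day 3 fewer of them changed without bFGF. From day 3 to day 7, 3 of 10 rose, against 9.15% of all genes, and all 3 were synthesis genes: Mthfd2 by 0.87 ± 0.14, Psph by 0.78 ± 0.15 and Shmt2 by 0.68 ± 0.15 (adjusted p = 0.00183, 0.00482 and 0.00882). The Psph call was lost without the BM library of day 3 or the C library of day 7 (adjusted p = 0.0566 and 0.0534). The Shmt2 call was lost without the BM or the C library of day 3 or the BM library of day 7 (adjusted p = 0.0785, 0.0512 and 0.0814). With bFGF 7 of 10 rose over the same days, against 32.7% of all genes, led by Ddit3 (1.52 ± 0.20), Mthfd2 (1.27 ± 0.13) and Atf4 (1.06 ± 0.10). Trib3 (-0.06 ± 0.12, adjusted p = 0.704) and Chac1 (-0.30 ± 0.17, adjusted p = 0.131) were not called. With library size alone 16% of all genes were called higher and 54.6% lower over these days. Of the 10 genes 3 (Ddit3, Mthfd2 and Atf4) were then called higher, Trib3 and Chac1 were called lower (-0.46 and -0.71, adjusted p = 0.00442 and 0.00243), and Shmt2, 0.32 ± 0.15 with TMM (adjusted p = 0.0712), turned to -0.08.

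**Figure D3:**
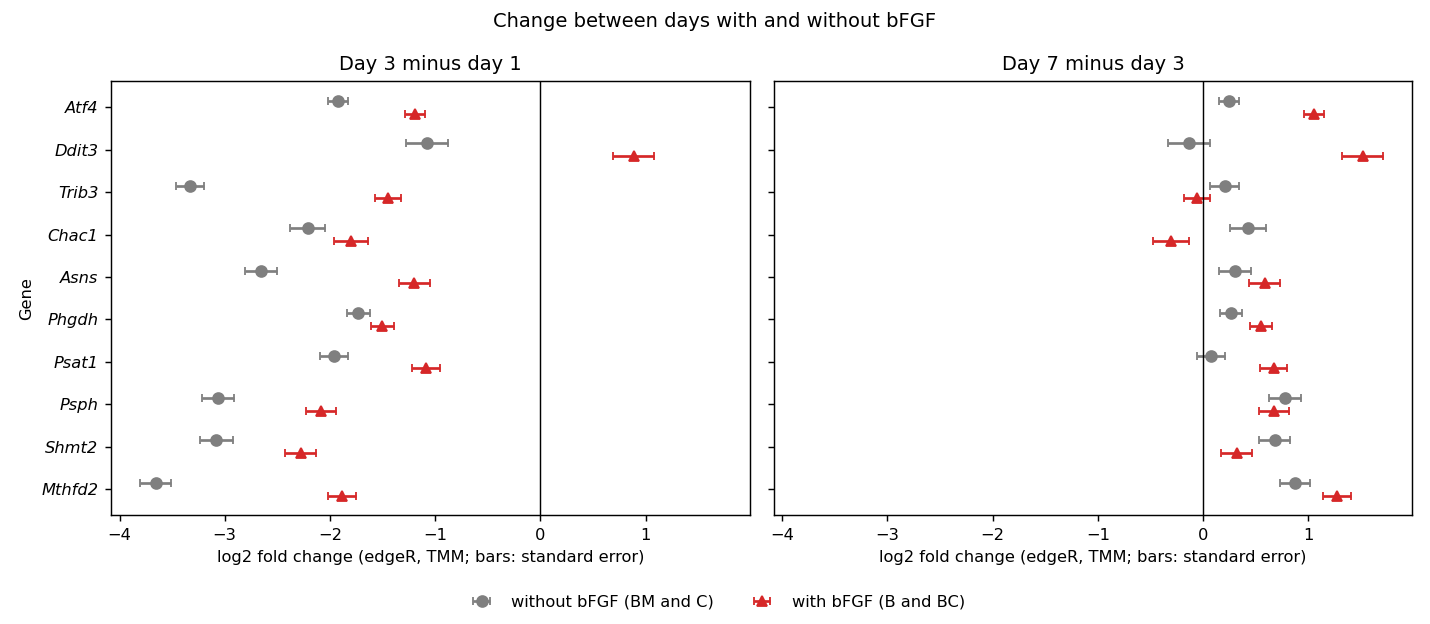
Estimated log2 fold change between days with its standard error (edgeR, TMM) without bFGF (BM and C, grey circles) and with bFGF (B and BC, red triangles), 1 row per gene. From day 1 to day 3 all values are below 0 except Ddit3 with bFGF (0.89). From day 3 to day 7 the values with bFGF spread from -0.30 in Chac1 to 1.52 in Ddit3, and with library size only the Shmt2 value with bFGF (0.32) turns to -0.08.

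Against the single day 0 control no test was possible, and a difference of at least 2 times on the log2(FPKM + 1) scale was used as a description. On day 1 the 3 stress targets, Ddit3, Trib3 and Chac1, were higher than day 0 in all 4 media, against 2.27% of all genes, while Atf4 and 5 of the 6 synthesis genes were within 2 times of day 0 in all 4. Psph was the intermediate case, at 1.98 and 2.17 times the day 0 FPKM in B and BC. On day 7, Atf4 and all 6 synthesis genes were lower than day 0 in both BM and C, against 12% of all genes, and none of the stress targets was in both (Trib3 was in C). In both B and BC of day 7, Ddit3 was higher than day 0, against 10% of all genes, and Phgdh and Shmt2 were lower, against 21.3%. Mthfd2 on day 7 was 6.03 times below day 0 in BM and 7.15 times in C, but 1.35 times below it in B and 1.62 times in BC.

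Ratios of FPKM within a library do not depend on the scaling between libraries, so they were used to set the genes against each other. The ratio of Ddit3 to Atf4 was 0.152 on day 0 and 0.393 to 0.509 on day 1, and from day 3 it was 0.623 to 0.91 without bFGF and 1.59 to 2.56 with it. Atf4 was thus the more abundant of the pair in every library without bFGF, and Ddit3 in every library with bFGF after day 1. The ratio of Chac1 to Ddit3 went the other way, with 0.38 on day 0, and on day 7 0.0163 (B) and 0.0148 (BC) beside 0.238 (BM) and 0.141 (C). Asns relative to Phgdh was 0.226 on day 0, and by day 7 it was 0.409 (B) and 0.416 (BC) beside 0.162 (BM) and 0.143 (C). Mthfd2 relative to Shmt2 was 0.695 on day 0, and by day 7 it was 2.09 (B) and 1.67 (BC) beside 0.518 (BM) and 0.532 (C). Psat1 relative to Phgdh was 0.346 on day 0, and by day 7 it was 0.471 (B) and 0.617 (BC) beside 0.256 (BM) and 0.304 (C). Asns relative to Ddit3 was 3.8 on day 0, and by day 7 it was 0.195 (B) and 0.176 (BC) beside 0.7 (BM) and 0.502 (C). Trib3 relative to Ddit3 overlapped between the media on day 3, at 0.0999 (BM), 0.104 (C), 0.086 (B) and 0.134 (BC), and by day 7 it was 0.0353 (B) and 0.038 (BC) beside 0.145 (BM) and 0.116 (C). These 7 ratios are all that were computed, and 4 of them are plotted.

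**Figure D4:**
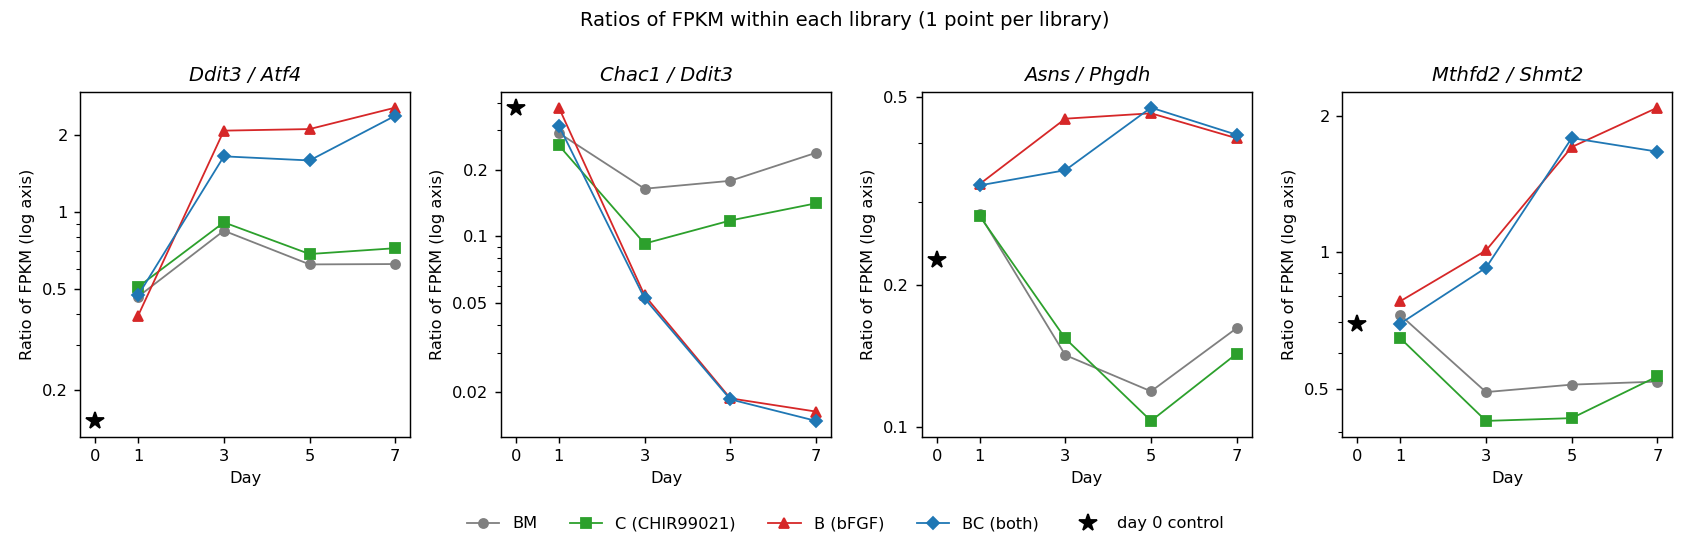
Ratio of FPKM within each library on a log axis against day for Ddit3 to Atf4, Chac1 to Ddit3, Asns to Phgdh and Mthfd2 to Shmt2, with the media and the day 0 control marked as in the legend. From day 3 the B and BC points lie apart from BM and C in all 4 ratios, above them except in Chac1 to Ddit3, which reaches 0.0148 in BC on day 7.

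As classes, the mean log2(FPKM + 1) of the 6 synthesis genes exceeded that of the 3 stress genes by 2.90 on day 0 and by 1.28 to 1.41 in the 4 libraries of day 1. From day 3 the excess was 0.81 to 1.43 without bFGF and 0.36 to 0.75 with it, so the 6 libraries with bFGF all had a smaller excess than the 6 without. No test was made of this score over chosen genes. The 3 stress genes did not move alike: on day 7 the bFGF difference was 3.84 in Ddit3, 1.98 in Trib3 and 0.24 in Chac1 (edgeR, TMM). On log2(FPKM + 1), Chac1 on day 7 was 4.07 (BM), 3.50 (C), 3.64 (B) and 3.39 (BC). The synthesis mean was 5.67 (BM), 5.54 (C), 6.64 (B) and 6.54 (BC). The excess over Chac1 alone was thus larger with bFGF on that day. Trib3 was 3.41 (BM), 3.25 (C), 4.69 (B) and 4.66 (BC). Over the mean of Trib3 and Chac1, without Ddit3, the day 7 excess was therefore also larger with bFGF. For other days a stress mean without Ddit3 was not computed. Over the 16 cultured libraries the synthesis genes gave Pearson's r of 0.778 to 0.988 on the log2(FPKM + 1) scale (15 pairs, median 0.915). Ddit3, Trib3 and Chac1 gave 0.061 to 0.828 (3 pairs, median 0.558). Between stress and synthesis genes r was 0.067 to 0.977 (18 pairs, median 0.796). Trib3 with Asns gave 0.977 and Chac1 with Shmt2 0.963, whereas Ddit3 reached at most 0.654 with a synthesis gene (Asns). These libraries share days and media, so the correlations are a description only. The genes most like Atf4 among all tested were Nup62 (r = 0.995), Arhgap11a (0.987) and Iws1 (0.985), those most like Asns were Hspa9 (0.992), Smc4 (0.991) and Aldh18a1 (0.991), and those most like Chac1 were Nup37 (0.982), Enkd1 (0.978) and Vdac3 (0.976).

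The result for CHIR99021 differed between the tests. In the edgeR fit over 16 libraries 0 of 10 were called, where 0.337% of all genes (38) were, and Chac1 was the 1 gene of 10 with an unadjusted p under 0.05. Its difference was -0.41 ± 0.12 (SE, adjusted p = 0.195). The other 9 differences lay between -0.25 in Mthfd2 and 0.08 in Psat1, with SEs up to 0.41. In the 8 pairs that differ in CHIR99021 only, Chac1 was lower with the inhibitor in 8 of 8 by 0.38 ± 0.24 (SD) and Mthfd2 in 8 of 8 by 0.26 ± 0.20 (exact permutation p = 0.00781 each, adjusted 0.0156). Asns and Phgdh were lower in 7 of 8 pairs, by 0.24 ± 0.23 and 0.17 ± 0.15 (exact permutation p = 0.0234 each, adjusted 0.0361). For these pairs, too, no share over all genes was counted. DESeq2 called 0 of the 10 genes for CHIR99021 and 0 for the interaction. The interaction of both agents was called in 0 of 10 genes, where 0.00887% of all genes (1) was, with 0 of 10 at an unadjusted p under 0.05, and its largest value was that of Ddit3 (-0.44 ± 0.85).

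Other genes of the pathway were taken from lists by function, and counted in the fit of bFGF over days 1 to 7 beside the 34.6% of all genes called higher and 33.9% called lower. Among 12 genes upstream of ATF4, the kinases and regulators of eIF2alpha, 4 rose, 4 fell and 4 were not called (median -0.02). Eif2ak1, the heme-regulated kinase, fell by 0.60 ± 0.13 and Eif2ak3, the ER stress kinase PERK, by 0.32 ± 0.13 (adjusted p = 0.00195 and 0.0425), each lower in 8 of 8 pairs of FPKM values, which are not TMM corrected. Outside that rule, and chosen after their values were seen, are the other genes called. Ppp1r15a, a subunit of the phosphatase that reverses the mark on eIF2alpha, rose by 1.75 ± 0.40 (adjusted p = 0.00211). The amino acid sensing kinase Eif2ak4 rose by 0.63 ± 0.13, Eif2s1, which encodes eIF2alpha, by 0.51 ± 0.06, and Ppp1r15b by 0.51 ± 0.12 (adjusted p = 0.00152, 9.85e-05 and 0.00278). The kinase Eif2ak2 fell by 0.48 ± 0.17 and Eif2b4 by 0.40 ± 0.13 (adjusted p = 0.0231 and 0.0133). Among 10 bZIP factors 5 rose and 2 fell (median 0.40). Atf6, an ER stress sensor, rose by 0.97 ± 0.12, the C/EBP partners Cebpb and Cebpg by 0.87 ± 0.16 and 0.69 ± 0.13, and Jdp2 fell by 0.60 ± 0.09. Again outside the rule and chosen after their values were seen, Atf3 rose by 1.04 ± 0.24 and Atf5 by 0.70 ± 0.20. Another C/EBP factor, Cebpd, fell by 0.75 ± 0.24 (adjusted p = 0.00229, 0.00852 and 0.0129 for Atf3, Atf5 and Cebpd).

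Of 14 other stress targets tested, 11 rose and the other 3 were not called (median 1.11). Atf3 and Ppp1r15a, counted above among the bZIP factors and the upstream genes, are on this list as well and are among the 11. Gdf15, a secreted stress cytokine, was at 3.54 (BM), 4.11 (C), 396 (B) and 403 (BC) on day 7, and rose by 5.58 ± 0.89 over days 1 to 7 (adjusted p = 0.00034). Ero1l, the ER oxidase that is a target of CHOP, was at 19.5 (BM), 21.0 (C), 709 (B) and 546 (BC) on day 7 (3.50 ± 0.63). Eif4ebp1, a translation repressor, and Vldlr, a lipoprotein receptor, rose by 1.68 ± 0.28 and 1.5 ± 0.25. Of 12 ER chaperones, which are mainly targets of ATF6 and XBP1, 11 rose and the other 1 was not called (median 0.82), among them Hspa5 (2.06 ± 0.40), Hsp90b1 (1.42 ± 0.26), Manf (1.34 ± 0.27) and Pdia6 (1.09 ± 0.20). Hspa5, the chaperone BiP, stood at 259 (BM), 292 (C), 1776 (B) and 1606 (BC) on day 7.

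Among 11 other amino acid synthesis genes 8 rose and 1 fell (median 0.69), with Aldh18a1 (1.45 ± 0.19) and Pycr1 (1.38 ± 0.21) of proline synthesis, Got1 (1.33 ± 0.16) of aspartate synthesis and Cth (1.04 ± 0.13) of cysteine synthesis. Among 12 other folate and one-carbon genes 6 rose and 2 fell (median 0.14). The mitochondrial Aldh1l2 rose by 2.33 ± 0.38 and Mthfd1l by 1.15 ± 0.13, and Amt of glycine cleavage fell by 0.56 ± 0.12. Of 10 amino acid transporters 4 rose and 1 fell (median 0.17), with Slc7a1, a carrier of arginine and lysine, at 0.98 ± 0.13. With library size alone, where 19.9% of all genes were called higher and 50.6% lower, the counts of genes that rose and fell were 4 and 7 (upstream), 4 and 3 (bZIP), 8 and 0 (stress), 9 and 1 (chaperones), 7 and 1 (synthesis), 3 and 4 (one-carbon) and 2 and 1 (transporters), and the medians of the one-carbon genes and the transporters turned to -0.14 and -0.12.

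**Figure D5:**
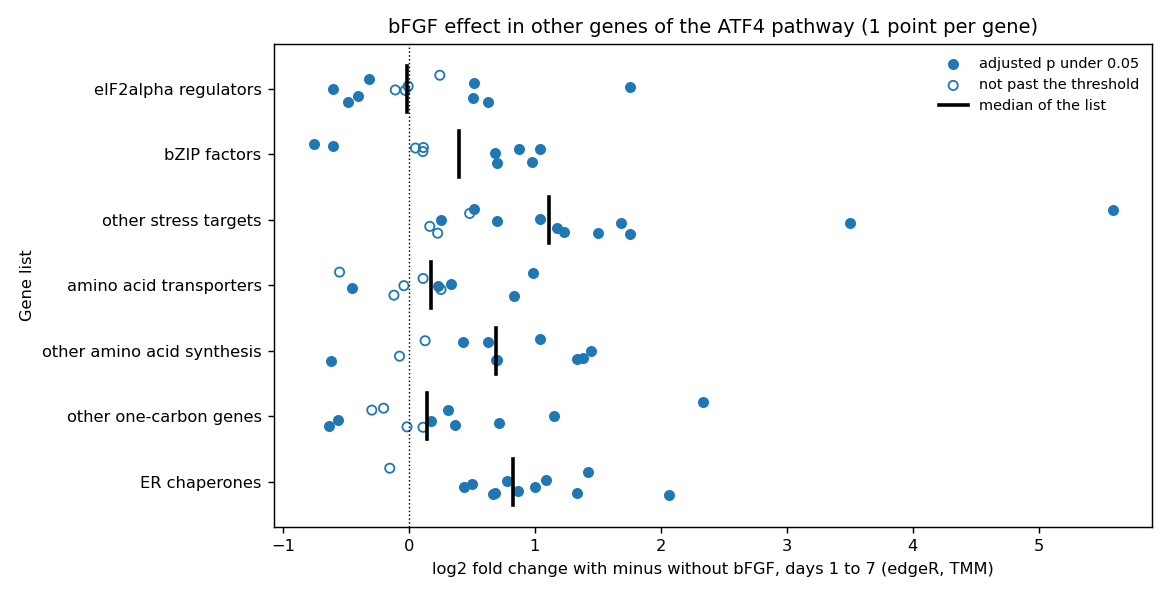
Estimated log2 fold change with minus without bFGF over days 1 to 7 (edgeR, TMM) for each tested gene of 7 lists, filled where the adjusted p is under 0.05, with the median of each list as a black line. The stress targets (median 1.11) and ER chaperones (median 0.82) lie mostly above 0, and the upstream regulators are spread around it (median -0.02). With library size only, the median of the upstream regulators is -0.31, and those of the one-carbon genes and transporters turn negative (-0.14 and -0.12).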

How the data were processed

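RNA of 17 libraries of mNRPCs was sequenced on the BGISEQ-500 platform. The authors mapped the reads with Bowtie 2 and estimated expression per gene, with eXpress by the study's methods and with RSEM by the submitters' processing notes, which name the build mm10. For each gene the authors deposited an expected count, in which reads shared by genes are divided, and an FPKM value scaled by transcript length and library total, listed from 0.01. A gene not listed was read as 0.

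Expected counts were rounded and tested with edgeR 4.0.16 (TMM, quasi-likelihood, Benjamini-Hochberg adjustment over 11272 genes, threshold 0.05) in R 4.3.3, over genes whose FPKM averaged 1 or more in the 16 cultured libraries. A first model had bFGF, CHIR99021 and day as terms (biological coefficient of variation 24.7%, 10 residual degrees of freedom), and another added their interaction. A further model had 1 term per combination of bFGF and day plus CHIR99021 (10%, 7 degrees of freedom), so that the media with and without CHIR99021 stood in for replicates. The SE of a log2 fold change is its size divided by the square root of F. The fits were also run on simulated counts, in which 200 genes changed with bFGF, up or down with equal chance and alike on every day. In the data 7713 genes were called for bFGF over days 1 to 7. The simulation therefore does not test the results that depend on TMM or on the day, and its outcome is not given here. Pairs of libraries were compared on log2(FPKM + 1) with exact two-sided sign-flip permutation tests in Python 3.11.15. Alternatives were DESeq2 1.42.0, limma 3.58.1 on log2(FPKM + 1) and log2(FPKM + 0.1), other filters, library size only, and leaving out day 1 or each library.

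Named were the 10 genes, from each list up to 4 genes with the largest called change in 1 direction in 8 of 8 pairs, and the 3 genes most correlated with Atf4, Asns and Chac1. The genes and lists were chosen with earlier results of these data known, so no test over a list was made. Some genes that the rules named are not reported here. Of the lists, Fgf21, Slc7a3, Slc43a1, Cbs, Aldh1l1 and Gldc did not pass the filter. Promoter windows were RefSeq's. Counting error was not measured apart from the other variation, and the precision is limited by the single library per condition.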

Additional observations from a re-analysis of the deposited data

Results flagged for a closer look

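In 8 of the 10 genes the bFGF difference was not the same on day 7 as on day 1, by the edgeR test of the difference itself (Benjamini-Hochberg adjusted p between 7.73e-07 and 0.00915). All 8 were larger on day 7, where 31.3% of all genes were called larger. In either direction 7371 of the 11272 genes tested were called, so a difference between these days was common. The excess of day 7 on the log2 scale was 3.61 in Ddit3, 2.17 in Mthfd2, 1.74 in Asns, 1.62 in Trib3, 1.54 in Atf4, 1.48 in Psat1, 0.88 in Psph and 0.51 in Phgdh. Of these, Psph and Phgdh were not called with library size alone, and Phgdh was also lost without the C library of day 1 (0.38, adjusted p = 0.0578). The cause of the difference between days was not tested.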

How the results depend on the processing

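Of 631 member differences recomputed under other tools, filters and scalings or without day 1, 572 kept direction and side of the threshold, 36 lost the call, 14 gained it and 9 reversed. With limma on log2(FPKM + 1), limma on log2(FPKM + 0.1) and library size only, in that order, Chac1 on day 7 reversed to -0.27, -0.29 and -0.30, Shmt2 on day 7 against day 1 to -0.03, -0.02 and -0.02, and Shmt2 on day 7 against day 3 with bFGF to -0.07, -0.07 and -0.08. These 3 settings leave out the TMM factors. On day 1, limma with either pseudocount called 1 of the 10 genes and library size only 1. For CHIR99021, 38 genes in all were called by edgeR, 281 by DESeq2, 22 with no filter on low values and 24 without day 1, and for the interaction 1 gene by edgeR, 5 by DESeq2, 0 by limma with either pseudocount, 0 with library size only and 2 without day 1. The cause was not tested.

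Leaving out 1 library at a time, 1596 of 1648 member differences kept direction and call. The genes called on day 1 ran from 145 (without BC of day 1) to 1778, and the members called from 0 (without BM, C or BC of day 1 or C of day 7) to 6 (without B or BC of day 3). For day 7 against day 3 without bFGF, 680 (without BM of day 3) to 2589 genes and 1 to 5 members were called. CHIR99021 gave 1 to 28 genes and the interaction 0 to 1. Without C of day 1 the CHIR99021 difference of Psat1, 0.08 in all, was -0.03 (range -0.03 to 0.17) and the interaction of Ddit3 was 0.20 (range -1.08 to 0.20), and without BM of day 3 Psat1 on day 7 against day 3 without bFGF was -0.07 (range -0.07 to 0.24). Without day 1, the smallest exact p over 6 pairs was 0.0312, and 0.0521 after adjustment, with no pair test past the threshold.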

Other observations

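The genes whose levels over the 16 cultured libraries were most like those of the other members were looked up after their values were seen. Ddit3 was most like Lonrf3 (Pearson's r = 0.993), Gdf15 (0.988) and Ubap1 (0.982), and Trib3 most like Spdl1 (0.987), Aldh18a1 (0.986) and Cars (0.983), the cysteinyl-tRNA synthetase. Phgdh was most like Ywhae (0.988), Gfm1 (0.986) and Nasp (0.984). Psat1 was most like Espl1 (0.988), Plk4 (0.984) and Chek1 (0.981), which act in mitosis, centriole duplication and the DNA damage checkpoint. Psph was most like Nup205 (0.993) and Hspd1 (0.991), Shmt2 most like Recql4 (0.993), Hells (0.992) and Rrm2 (0.991), a subunit of ribonucleotide reductase, and Mthfd2 most like Uhrf1 (0.991), Hspa9 (0.99) and Blm (0.989). These are descriptions over libraries that share days and media, with no test.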
